A study of Mus musculus with 38 samples.

Results

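The genes of the positive limb of the circadian clock, and those of the nuclear receptors acting on it, were followed in the lung and forestomach of mice given dibenz(a,h)anthracene (DBahA). They were Arntl, Clock, Npas2, Nr1d1, Nr1d2 and Rora, chosen by name with earlier results of these data known. These 6 genes were read from 6 probes, 1 probe each, among 20018 genes with a symbol on the array. Male Muta™Mouse, a transgenic strain that carries a lacZ reporter of mutation, were about 10 weeks old and were gavaged daily for 28 days with DBahA in olive oil. The controls (D0) received olive oil alone, so all groups share the strain, the vehicle and the daily gavage. The daily dose per kg of body weight was raised from 6.25 mg in D1 to 12.5 mg in D2 and 25 mg in D3. Mice were killed 72 h after their final gavage, and RNA came from random sections of each tissue. There were lungs of 5, 5, 4 and 5 mice (D0 to D3 in order) and forestomachs of 5, 5, 4 and 4. The mice were kept under a light and dark cycle, and the hour of day at which each mouse was killed is not given in the sources used here. For the clock genes below, a difference between dose groups in that hour therefore cannot be told apart from a difference due to dose.

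The clock of mammalian cells is a feedback loop of transcription. Arntl (also called Bmal1) pairs with Clock or with its close relative Npas2, and the pair binds E-box elements and drives the Per and Cry repressors, the Nr1d receptors and output factors such as Dbp. Nr1d1 and Nr1d2 (Rev-erb alpha and beta) are heme-binding nuclear receptors that repress Arntl, and Rora activates it through the same element. The loop runs in most organs, lung and stomach included, and the levels of Arntl and of the Nr1d genes normally peak at opposite times of the day. DBahA is a polycyclic aromatic hydrocarbon that binds the aryl hydrocarbon receptor, a transcription factor whose partner Arnt is related to Arntl.

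Each array set the RNA of 1 tissue sample (Cy5) against a universal mouse reference RNA made from cell lines (Cy3), and every value below is a log2 ratio of tissue to reference. The scale compares 1 gene between samples and says nothing of which of 2 genes is more abundant. In whole tissue, fewer cells of a type and less RNA per cell cannot be told apart. Calls required at least a 1.5-fold change and, in the limma fit, a p of at most 0.05 after Benjamini-Hochberg adjustment over all 55681 probes.

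The tissue labels held against marker genes. All 6 lung epithelium markers were well above background in every lung sample, and at least 6 of 7 squamous epithelium markers were in every forestomach sample. The forestomach samples also carried markers of glandular stomach to very different extents. The mean log2 ratio of its 9 markers ran from 0.34 to 6.47 in forestomach and from 0.02 to 0.35 in lung. Samples of 1 dose group correlated with each other at 0.92 to 0.96 over all probes in lung and at 0.66 to 0.97 in forestomach. The 9 glandular markers were all higher at D3 than at D0 in forestomach, by a median of 1.17, and none was called. The mean of 6 fat markers also varied in forestomach, from 0.94 to 4.84, with at most 1.44 at D3. The part of fat in the forestomach results was not tested. In lung the mean of 6 heart muscle markers ran from 0.37 to 1.70 at D0 and from 0.15 to 2.13 at D1. It ran from 0.15 to 3.13 at D2 and from 0.15 to 2.86 at D3. The mean of the fat markers in lung ran from 0.64 to 2.55 over all doses. The part of heart muscle and of fat in the lung results was not tested. The labels give 2 forestomach arrays of D3 to mouse 18, and these were averaged. They correlated at 0.77 over all probes, within the forestomach range just given. Mouse 20 of D3 had a lung array but no forestomach array. Whether both arrays of mouse 18 came from 1 animal was not tested. The D3 forestomach group and the pairing of tissues by mouse rest on that label. The arrays lay on 5 slides, and 1 slide held no D0 sample.

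Arntl encodes the obligate partner of the positive limb. Of the 9 member promoters in the RefSeq table (build GRCm38.p6, 250 bases before to 50 bases after a start site, at least 1 for each of the 6 members), the promoter of the second listed Arntl start is shown because it was the only one of the 9 with the element TAGGTCA, to which Nr1d and Ror receptors bind. It is chr7:113207261-113207560 on the + strand, and the capitals mark the element, 31 bases after the start site.
Arntl promoter: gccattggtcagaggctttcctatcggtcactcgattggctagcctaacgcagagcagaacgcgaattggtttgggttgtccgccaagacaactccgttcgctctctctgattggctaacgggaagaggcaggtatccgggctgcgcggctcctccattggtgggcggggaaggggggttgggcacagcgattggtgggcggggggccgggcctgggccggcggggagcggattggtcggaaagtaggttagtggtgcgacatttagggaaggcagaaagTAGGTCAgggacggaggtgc
Both strands were searched for TAGGTCA, which 2.61% of all 32851 promoters in the table contain. The other motifs searched were the related receptor element TGGGTCA, the E-box CACGTG, the E-box-like CACGTT, the element TTATGTAA of Dbp and its relatives, and GCGTG. None of them matched in this window, and the first listed Arntl start had no match at all.

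Arntl fell in lung at the 2 higher doses. In the 5 D0 lungs its log2 ratios were 0.80, 0.53, -0.21, 0.57 and 0.51. In the 5 D1 lungs they were 0.25, -1.01, 0.12, -0.39 and -0.29. All 5 D1 values were below the D0 mean, but the groups overlapped through the 1 low D0 mouse. In the 4 D2 lungs the log2 ratios of Arntl were -0.41, -1.23, -0.72 and -1.26. In the 5 D3 lungs they were -1.64, -0.33, -1.15, -1.45 and -0.66. Every D2 and D3 lung lay below every D0 lung. The difference from D0 was -0.71 (SE 0.26, adjusted p = 0.609, limma) at D1 and was not called. At D2 it was -1.35 (SE 0.27, adjusted p = 0.0257), a 2.54-fold lower level. At D3 it was -1.49 (SE 0.26, adjusted p = 0.00345), a 2.8-fold lower level. The mean of the 3 doses was -1.18 below D0 (SE 0.21, adjusted p = 0.00492), and 14 of 14 treated lungs were below the D0 mean. Within the 4 slides that held a D0 lung, 10 of 11 treated lungs were below the D0 level of their own slide, by -1.60 to -0.38 on average per slide. That level came from only 1 or 2 D0 mice per slide, so these comparisons are not independent.

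Among the 6 members, limma called 0 in lung at D1, 2 at D2, 2 at D3 and 2 for the mean of the doses, against 0.14%, 0.264%, 0.639% and 0.411% of all probes. At an unadjusted p under 0.05 there were 4, 4, 4 and 5 of the 6 members, against 6.53%, 8.07%, 11.3% and 11.6% of all probes. The 2 called members were Arntl and Nr1d2 each time. Because the members were chosen with earlier results known, these counts beside the shares describe them and do not test the set. The D2 calls depended on single mice. The Arntl call at D2 was lost when any of mice 1, 2, 4 or 5 of D0 or 12, 13 or 15 of D2 was left out (adjusted p up to 0.151), and the Nr1d2 call at D2 without mouse 1, 4, 5, 12 or 15 (adjusted p up to 0.142). The D3 calls of both genes stood without any single mouse.

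**Figure D1:**
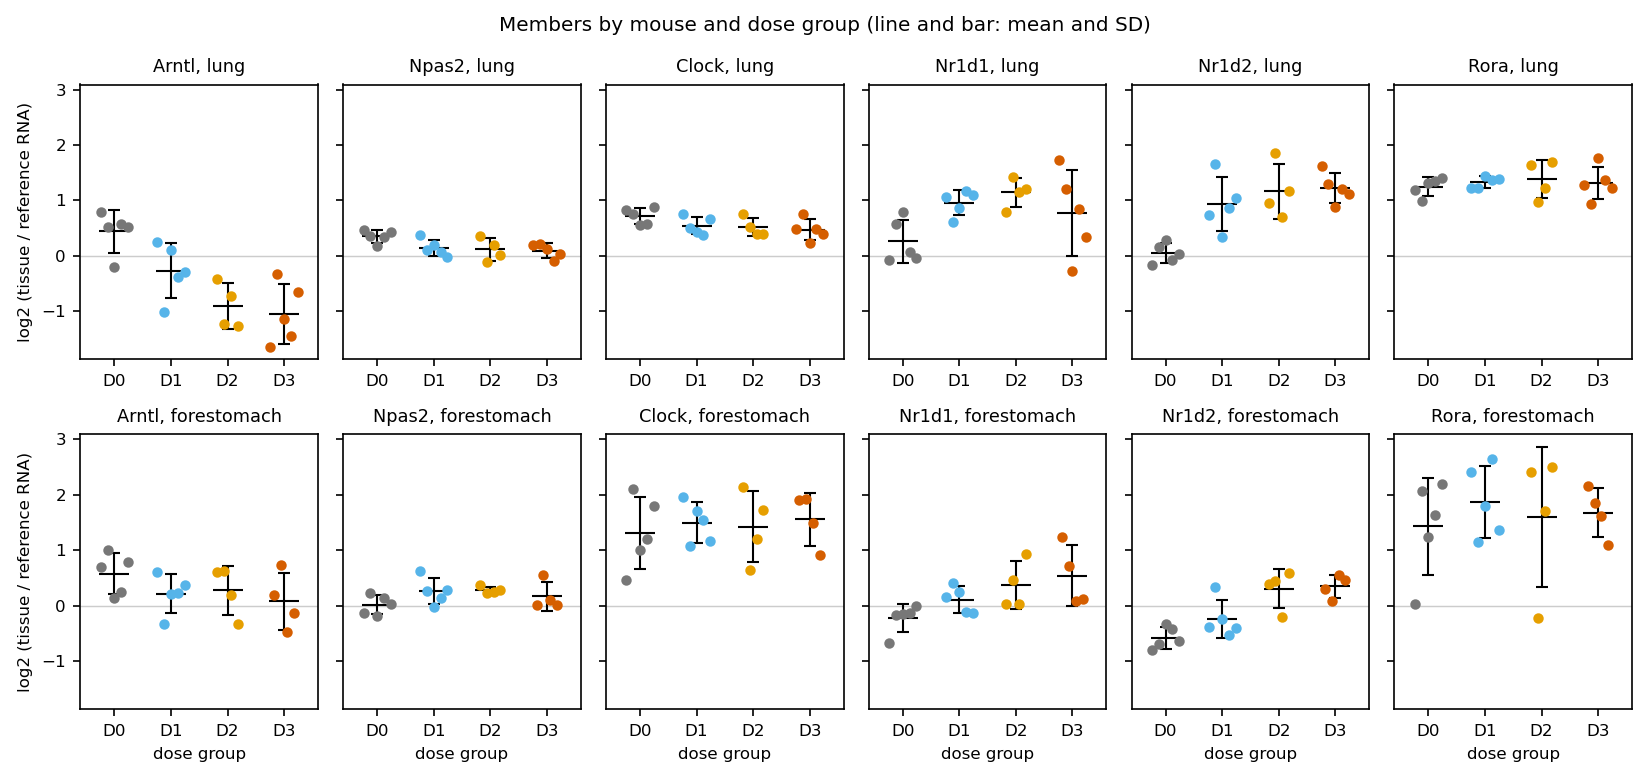
Log2 ratio of tissue to reference RNA (vertical axis, shared by all panels) of the 6 genes in each mouse, by dose group (horizontal axis), with lung above and forestomach below. Points are mice, and the black line and bars are the group mean and SD. In lung, Arntl runs from a mean of 0.44 at D0 to -1.05 at D3 and Nr1d2 from 0.05 to 1.23, while Clock and Rora in forestomach show wide scatter within each dose group.

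In forestomach Arntl was not called at any dose. Its log2 ratios in the 5 D0 samples were 0.70, 1.01, 0.15, 0.25 and 0.78, and in the 5 D1 samples 0.60, -0.33, 0.21, 0.23 and 0.38. In the 4 D2 samples they were 0.60, 0.63, 0.20 and -0.33, and in the 4 D3 samples 0.19, 0.73, -0.47 and -0.13. The groups overlapped at every dose. The differences from D0 were -0.36 (SE 0.24) at D1, -0.30 (SE 0.26) at D2 and -0.50 (SE 0.26) at D3, and their 95% intervals all held 0 (at D3, -1.04 to 0.05). With median centring in place of loess, the D2 and D3 differences became positive (0.28 and 0.17).

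Clock and Npas2, the alternative partners of Arntl, were not called in either tissue at any dose. In lung, Clock had log2 ratios of 0.83, 0.76, 0.55, 0.57 and 0.88 at D0, 0.76, 0.50, 0.43, 0.39 and 0.66 at D1, 0.76, 0.52, 0.40 and 0.40 at D2, and 0.48, 0.76, 0.24, 0.48 and 0.40 at D3. The spread within a group was narrow (SD 0.15 to 0.19), and all groups overlapped. Its differences from D0 were -0.17 (SE 0.10), -0.20 (SE 0.11) and -0.25 (SE 0.10, adjusted p = 0.346, limma) at D1, D2 and D3. They turned positive with median centring (0.12, 0.16 and 0.10). On each of the 4 slides with a D0 lung, all treated lungs, 11 of 11, had less Clock than the D0 level of that slide. That level came from only 1 or 2 D0 mice per slide, which the treated lungs of the slide shared.

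In forestomach Clock varied more within groups than between them. Its log2 ratio ran from 0.47 to 2.11 at D0, from 1.08 to 1.96 at D1, from 0.64 to 2.13 at D2 and from 0.92 to 1.93 at D3. The differences from D0 were 0.18 (SE 0.32), 0.11 (SE 0.34) and 0.24 (SE 0.34). The level of Clock was also read against the glandular stomach markers. In the 6 arrays where the markers averaged below 1, Clock lay between 1.55 and 2.20 (median 1.76), and in the 13 arrays where they averaged above 4, between 0.47 and 2.13 (median 1.17). On the 2 arrays numbered mouse 18 the marker mean was 0.92 and 6.04, and Clock was 2.20 and 0.78. With the marker mean as a covariate, the difference of Clock from D0 was 0.40 at D3 and still not called (adjusted p = 0.988).

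Npas2 was dim. In Cy5 its probe was well above background on 2 of 5, 2 of 5, 1 of 4 and 1 of 5 lung arrays at D0 to D3, and in forestomach on 0 of 5, 0 of 5, 2 of 4 and 1 of 4 mice. In lung its log2 ratios were 0.47, 0.36, 0.17, 0.34 and 0.43 at D0, and 0.20, 0.22, 0.13, -0.09 and 0.03 at D3. The D3 lungs were all below the D0 mean, but the groups overlapped. The differences from D0 in lung were -0.21 (SE 0.10) at D1, -0.24 (SE 0.10) at D2 and -0.26 (SE 0.10, adjusted p = 0.256, limma) at D3. In forestomach the D0 samples give only an upper bound. At D2 only 2 of 4 mice were well above background, so no fold is given (adjusted p = 0.9999, limma). At D1 both groups were not well above background, and at D3 no fold could be given.

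Nr1d2, the Rev-erb beta gene, was the member called in the direction opposite to Arntl in lung. Its promoter, chr14:18239057-18239356 on the - strand, and that of Nr1d1, chr11:98775328-98775627 on the - strand, are shown because both genes encode receptors that bind the element marked in the Arntl promoter. Capitals mark GCGTG, the core to which the aryl hydrocarbon receptor binds (written CACGC where it lies on the other strand), and, in Nr1d1, the E-box-like CACGTT (written AACGTG).
Nr1d2 promoter: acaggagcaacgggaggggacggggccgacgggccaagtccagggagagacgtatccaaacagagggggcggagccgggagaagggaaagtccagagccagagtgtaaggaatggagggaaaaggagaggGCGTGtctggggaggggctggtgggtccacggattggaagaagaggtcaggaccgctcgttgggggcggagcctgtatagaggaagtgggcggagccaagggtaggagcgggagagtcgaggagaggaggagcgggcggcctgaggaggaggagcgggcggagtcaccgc
Nr1d1 promoter: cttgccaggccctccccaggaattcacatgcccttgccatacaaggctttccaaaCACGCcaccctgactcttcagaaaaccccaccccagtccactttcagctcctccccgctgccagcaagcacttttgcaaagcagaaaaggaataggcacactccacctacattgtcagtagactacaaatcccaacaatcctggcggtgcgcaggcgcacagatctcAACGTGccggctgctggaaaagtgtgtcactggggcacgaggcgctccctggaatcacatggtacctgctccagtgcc
GCGTG matched once in each, at position -120 from the start site in Nr1d2 and -195 in Nr1d1. It also matched in promoters of Clock, Npas2 and Rora, which are not shown, and it occurs in 32.4% of all promoters. CACGTT lay at position -28 in Nr1d1 and is found in 4.68% of all promoters. Neither window held CACGTG (7.15% of all promoters), TTATGTAA (0.938%), TAGGTCA or TGGGTCA (3.98%). A match is a description of the letters only.

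In lung, Nr1d2 rose at D2 and D3. Its log2 ratios at D0 were -0.16, 0.17, 0.29, -0.07 and 0.04. At D1 they were 0.73, 1.67, 0.34, 0.87 and 1.04. Every D1 lung was above every D0 lung. At D2 the log2 ratios of Nr1d2 were 0.95, 1.85, 0.70 and 1.17, and at D3 they were 1.63, 1.29, 0.88, 1.21 and 1.12. None of the 14 treated lungs overlapped with the D0 lungs, which over the 3 doses together held for 1 of the 6 members and 0.422% of all probes, and the highest value was that of a D2 lung. The difference from D0 was 0.88 (SE 0.21, adjusted p = 0.140, limma) at D1, 1.12 (SE 0.22, adjusted p = 0.0225) at D2 and 1.17 (SE 0.21, adjusted p = 0.00463) at D3. These are 1.83-, 2.17- and 2.25-fold higher levels, and the first was not called. The mean of the doses was 1.05 above D0 (SE 0.17, adjusted p = 0.00192). With slide as a block Nr1d2 was also called at D1 (0.86, adjusted p = 0.0192), as it was without mouse 8 of D1 (1.02, adjusted p = 0.047). On the slides with a D0 lung, 11 of 11 treated lungs were above the D0 level of their slide, by 0.35 to 1.44 on average per slide. Again that level came from only 1 or 2 D0 mice per slide.

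In lung 1 member at D1, 3 at D2 and 2 at D3 did not overlap with D0, against 1.36%, 2.67% and 3.1% of all probes. They were Nr1d2 at D1, Arntl, Nr1d1 and Nr1d2 at D2, and Arntl and Nr1d2 at D3. With median centring in place of loess neither Arntl nor Nr1d2 was called at any dose, although their D3 differences were -1.02 and 1.37 (adjusted p = 0.732 for both). With that scaling limma called 16 probes in all at D3, against 356 with loess.

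**Figure D2:**
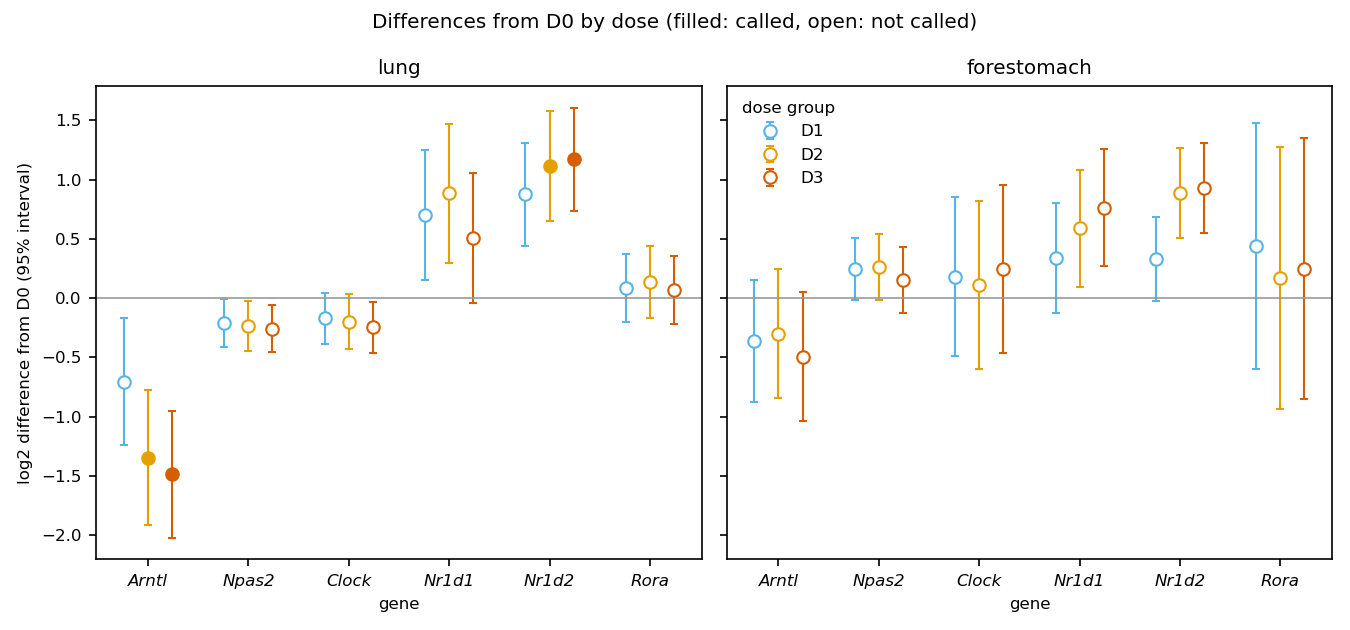
Log2 difference from D0 (vertical axis) of the 6 genes at D1, D2 and D3, with the 95% interval of the limma fit, in lung and forestomach. Filled points were called and open points were not. The 4 filled points are Arntl and Nr1d2 in lung at D2 and D3, and the intervals of Nr1d2 in forestomach at D2 and D3 also lie above 0.

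In forestomach limma called 0 of the 6 members at D1, D2 and D3 and for the mean of the doses, as it called 0% of all probes in each of these 4 comparisons. At an unadjusted p under 0.05 there were 0, 2, 2 and 3 members, against 4.32%, 3.1%, 3.56% and 3.4% of all probes. Nr1d2 had the largest differences among the 6 at D2 and D3. Its log2 ratios were -0.81, -0.69, -0.33, -0.42 and -0.64 at D0 and -0.39, 0.34, -0.24, -0.53 and -0.40 at D1. At D2 they were 0.40, 0.45, -0.20 and 0.59, and at D3 0.30, 0.09, 0.56 and 0.47. All D2 and D3 samples were above all D0 samples, and D1 overlapped with D0. The difference of Nr1d2 from D0 was 0.33 (SE 0.17), 0.89 (SE 0.18, adjusted p = 0.9999, limma) and 0.93 (SE 0.18, adjusted p = 0.891). In forestomach 13 of 13 treated samples were above the D0 mean of Nr1d2. The D3 value was 0.98 with the first array of mouse 18 alone and 0.88 with the second. With the glandular marker mean as a covariate it was 0.92.

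Nr1d1, the Rev-erb alpha gene, was not called in either tissue. In lung its log2 ratios were -0.08, 0.58, 0.78, 0.07 and -0.05 at D0, 1.06, 0.62, 0.87, 1.17 and 1.10 at D1, and 0.79, 1.42, 1.16 and 1.21 at D2. All D2 lungs were above all D0 lungs, and at D1 only the lowest value fell inside the D0 range. At D3 the log2 ratios of Nr1d1 were 1.74, 1.20, -0.28, 0.85 and 0.34, a range from below to above all other lungs. The differences from D0 were 0.70 (SE 0.26), 0.88 (SE 0.28, adjusted p = 0.296, limma) and 0.51 (SE 0.26, adjusted p = 0.497). For the mean of the doses the difference was 0.70 (SE 0.22, adjusted p = 0.158), with 13 of 14 treated lungs above the D0 mean. The exception was mouse 18 of D3, and without it the mean was called (0.79, adjusted p = 0.032).

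In forestomach Nr1d1 had log2 ratios of -0.67, -0.17, -0.14, -0.13 and -0.0026 at D0, and 0.17, 0.41, 0.24, -0.12 and -0.14 at D1. At D2 they were 0.031, 0.46, 0.031 and 0.94, and at D3 1.24, 0.71, 0.085 and 0.12. The D2 and D3 samples were all above the D0 samples with the arrays of mouse 18 averaged. Those arrays gave -0.22 and 0.39, and the first lay inside the D0 range. The 2 members that did not overlap with D0 at D2, and the 2 at D3, were Nr1d1 and Nr1d2, against 0.971% and 1.13% of all probes. At D1 there were 0 members (0.554% of all probes), and over the 3 doses together also 0 (0.0162%). The differences of Nr1d1 were 0.34 (SE 0.22), 0.59 (SE 0.23) and 0.76 (SE 0.23, adjusted p = 0.9999, limma), and 13 of 13 treated samples exceeded the D0 mean.

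Rora, the activator that binds the same element as the Nr1d receptors, showed no difference past the test. In lung it lay between 0.99 and 1.41 at D0, between 1.22 and 1.44 at D1, between 0.98 and 1.70 at D2 and between 0.94 and 1.76 at D3. Its differences from D0 in lung were 0.08 (SE 0.14), 0.13 (SE 0.15) and 0.07 (SE 0.14), with a 95% interval at D3 of -0.22 to 0.36. In forestomach Rora was the most scattered member, from 0.03 to 2.20 at D0 and from -0.22 to 2.50 at D2 (SD 1.26). At D3 its difference was 0.25 (95% interval -0.85 to 1.35). As for Clock, its median was higher where the glandular markers were low. Rora lay between 1.80 and 2.65 (median 2.22) in the 6 arrays with a low marker mean and between -0.22 and 2.42 (median 1.36) in the other 13, and it was 2.23 and 1.01 on the 2 arrays of mouse 18. With the marker mean as a covariate the D3 difference of Rora was 0.49.

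**Figure D3:**
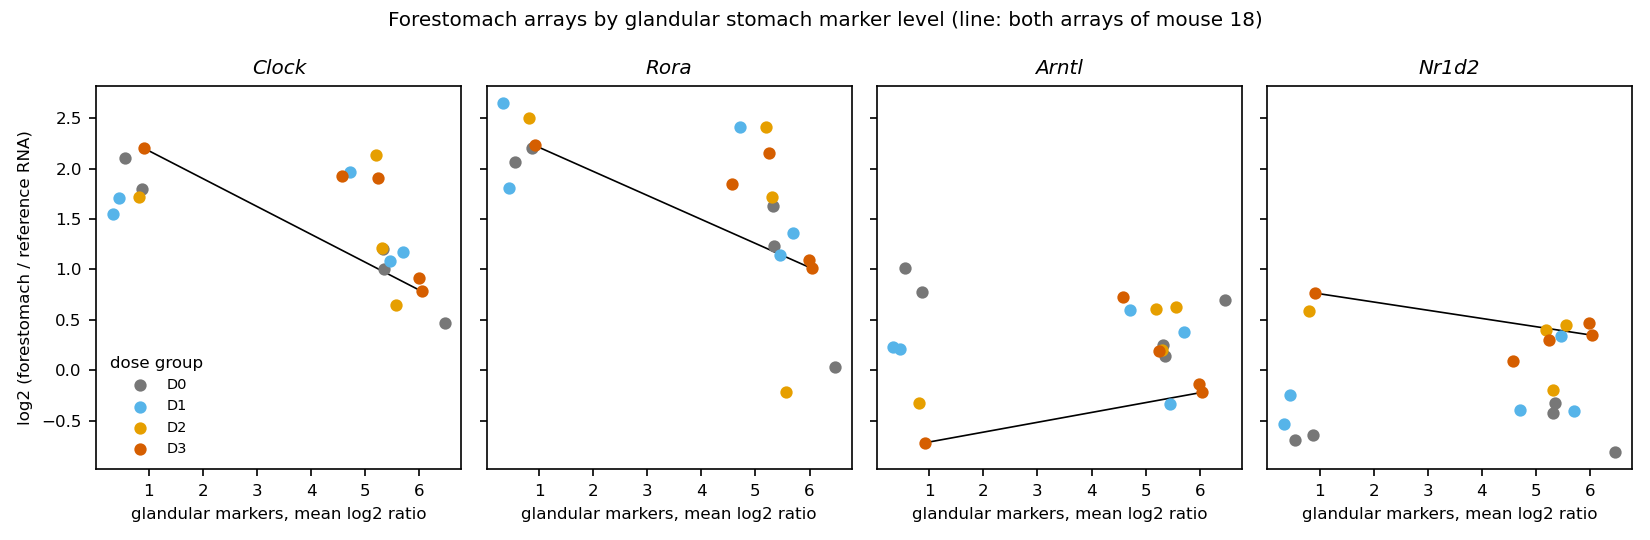
Log2 ratio of Clock, Rora, Arntl and Nr1d2 on the 19 forestomach arrays (vertical axis, shared) against the mean log2 ratio of 9 glandular stomach markers on the same array (horizontal axis), coloured by dose group, with a line joining the 2 arrays of mouse 18. The arrays fall in a set of 6 below 1 and a set of 13 above 4, and the lowest values of Clock (0.47) and Rora (-0.22) both lie in the second set.

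The tissues were compared directly in 1 fit, which did not pair the lung and forestomach of the same mouse. In the D0 mice Nr1d2 was higher in lung than in forestomach by 0.63 (SE 0.20, adjusted p = 0.0173, limma) and was the 1 member of 6 called, against 16.2% of all probes. At an unadjusted p under 0.05 there were 3 members and 36% of all probes. Every D0 lung was above every D0 forestomach sample. Clock was lower in lung by -0.60 (SE 0.24, adjusted p = 0.0617), and with the mouse as a replicate block, which pairs the tissues of the same animal, it was called as well (-0.60, adjusted p = 0.0366). The Nr1d2 call was lost without mouse 2 or mouse 5 (adjusted p = 0.0747 and 0.0525), and Clock was called without mouse 1 (-0.84, adjusted p = 0.011). Nr1d1, Arntl and Rora differed by 0.48 (SE 0.26), -0.14 (SE 0.27) and -0.18 (SE 0.37) and were not called. For Npas2, which was not well above background in any D0 forestomach sample, no fold could be given (adjusted p = 0.0195).

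Over the 8 groups of tissue and dose, Arntl was highest in forestomach at D0 and lowest in lung at D3, 1.62 apart on the log2 scale. Nr1d2 spanned 1.80 in the opposite direction, from lung at D3, D2 and D1 down through forestomach D3 and D2, lung D0 and forestomach D1 to forestomach D0. Clock was higher in all 4 forestomach groups than in any lung group. For each of the 6 members, the ranges of all 7 pairs of neighbouring groups in the order overlapped, so no neighbours differed beyond their spread.

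Whether the response differed between the tissues was tested as the lung difference minus the forestomach difference. At D3, 0 of the 6 members were called by limma (0.172% of all probes), and for the mean of the doses also 0 (0.192%), with 2 members in each at an unadjusted p under 0.05 (5% and 4.74% of all probes). For Arntl the D3 response was more negative in lung by -0.99 (SE 0.39, 95% interval -1.78 to -0.20, adjusted p = 0.757). With the mouse as a replicate block it was -1.09 (adjusted p = 0.0802). For Nr1d2 it was 0.24 (95% interval -0.36 to 0.84), for Nr1d1 -0.26 (-1.03 to 0.52), for Clock -0.49 (-1.20 to 0.22) and for Rora -0.18 (-1.27 to 0.91). Npas2 was, besides Arntl, the member with an unadjusted p under 0.05, at D3 and for the mean of the doses. Its D0 forestomach samples were not well above background, so no difference is given (adjusted p = 0.770 and 0.276, limma). Arntl was thus called lower in lung and not in forestomach, but the difference between the tissues was not past the test.

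Mice of the same dose also differed from each other. Mouse 7 had both the lowest Arntl (-1.01) and the highest Nr1d2 (1.67) of the D1 lungs, and again the lowest Arntl (-0.33) and the highest Nr1d2 (0.34) of the D1 forestomachs. Mouse 3 held the same place among the D0 mice in both tissues, with lung values of -0.21 for Arntl and 0.29 for Nr1d2. Mouse 17 had the highest Arntl of D3 in lung (-0.33) and in forestomach (0.73), and the lowest Nr1d2 of D3 in forestomach (0.09), but in lung its Nr1d2 (1.29) was exceeded in D3 only by mouse 16 (1.63).

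Dose group means were removed before correlations were computed, and p came from 100000 permutations within dose groups, two-sided, adjusted over 10 pairs of Arntl with another member (5 in each tissue). Arntl and Nr1d2 were inversely related in lung (n = 19 mice, Pearson r = -0.65, permutation p = 0.0058, adjusted 0.0393, and Spearman rho = -0.63, p = 0.0116, adjusted 0.0463). They were also inversely related in forestomach (n = 18, r = -0.62, permutation p = 0.0118, adjusted 0.0393, and rho = -0.62, p = 0.0139, adjusted 0.0463). Without the 2 mice farthest out in Arntl, r was -0.52 in lung and -0.45 in forestomach, and with slide means removed too it was -0.93 and -0.83. Arntl and Npas2 were directly related among lungs (r = 0.62, permutation p = 0.0106, adjusted 0.0393, rho = 0.65, p = 0.00841, adjusted 0.0463, and r = 0.61 without the 2 farthest mice). Npas2 was near background on most of these arrays. The other 7 pairs did not pass, with r for Nr1d1 of -0.27 in lung and -0.05 in forestomach.

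Arntl itself was also related between the lung and the forestomach of the same mouse, though not past the adjustment over the 6 members (n = 18 mice, r = 0.63, permutation p = 0.0155, adjusted 0.093, rho = 0.57, p = 0.0286, adjusted 0.172). Without the 2 mice farthest out in lung r was 0.44. The lung array and the (first) forestomach array of a mouse lay on the same slide. With slide means removed too, r for Arntl was 0.70. For the other 5 members r between the tissues lay from 0.32 to 0.52, none past the test (permutation p from 0.0935 to 0.231, adjusted 0.198 to 0.231). For Nr1d1 and Nr1d2 r dropped to 0.15 and 0.17 without the 2 farthest mice, so these rest on those mice.

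**Figure D4:**
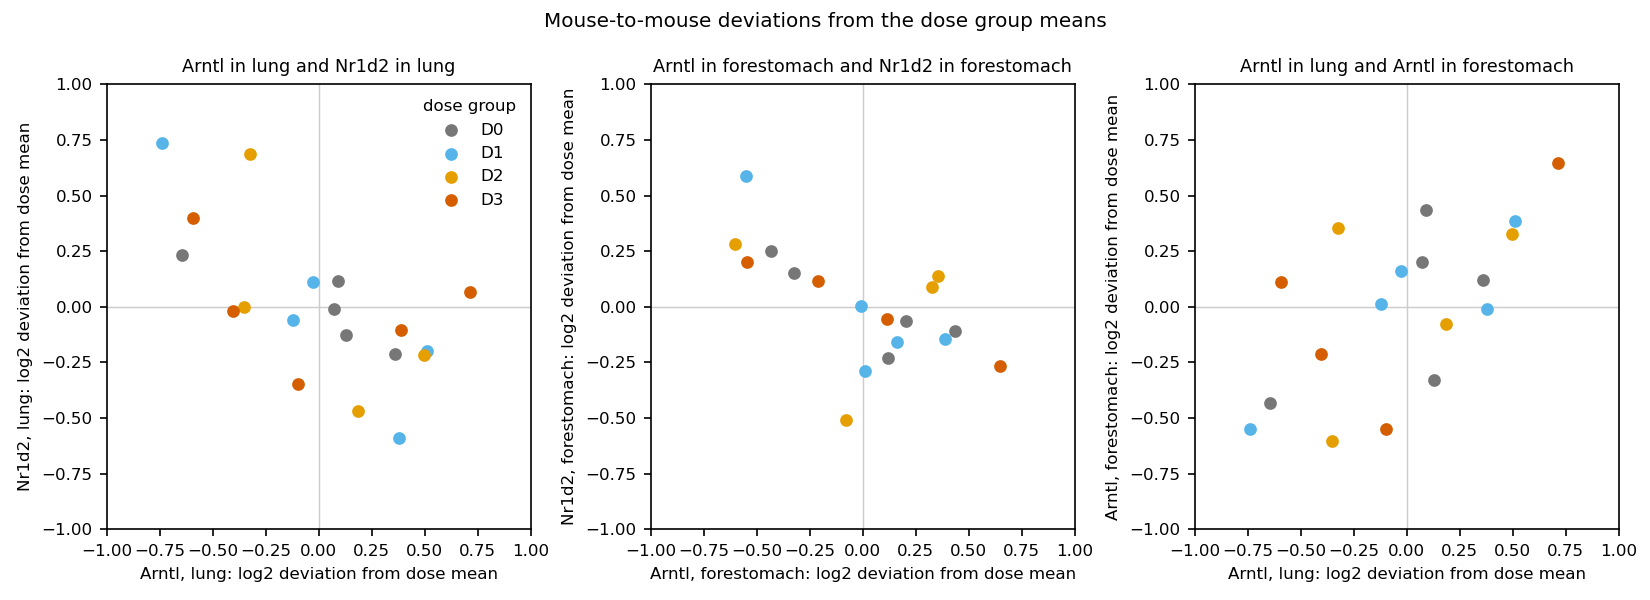
Deviation of each mouse from its dose group mean, in log2 units on both axes, for Arntl and Nr1d2 in lung (left), Arntl and Nr1d2 in forestomach (middle) and Arntl in lung and in forestomach of the same mouse (right), coloured by dose group. The first 2 panels slope downwards (r = -0.65 and -0.62) and the third upwards (r = 0.63).

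Of the genes measured well in lung, those whose log2 ratios followed Arntl most closely over all 19 lungs were, among 13685 genes compared, Ahcyl2 (r = 0.92), Trim3 (0.92), Wdr45 (0.86), Heatr1 (0.86) and Tmem171 (0.85). Those running most against it were Tspan4 (r = -0.94), Dbp (-0.92), Pmm1 (-0.92), Col18a1 (-0.88) and Apoa2 (-0.88). These values include the differences between doses. With dose means removed, r was 0.80 for Ahcyl2, 0.78 for Trim3, 0.62 for Wdr45, 0.51 for Heatr1 and 0.73 for Tmem171. It was -0.86 for Tspan4, -0.80 for Dbp, -0.81 for Pmm1, -0.72 for Col18a1 and -0.655 for Apoa2. In forestomach, among 12454 genes over 18 mice, the closest were Dyrk1a (r = 0.82), Fbxw7 (0.72), Dph3 (0.71), Krtap5-2 (0.71) and Arhgap20 (0.70), and the most opposed Il17ra (-0.76), Plxna1 (-0.68), Nfkb1 (-0.65), Specc1l (-0.65) and Cstf1 (-0.64). With dose means removed, r in forestomach was 0.71 (Fbxw7) to 0.81 (Dyrk1a) for the closest and -0.79 (Plxna1) to -0.63 (Specc1l) for the most opposed. No gene was in both sets of 10. These are descriptions over mice that share slides and a reference.

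The rest of the clock was read from 3 lists, with 4 output factors, 8 repressors and 12 cofactors and kinases, all measured. These lists too were chosen with earlier results of these data known. All comparisons of a tissue share its D0 samples. The 4 output factors had the largest median difference of the 3 lists at D3 in both tissues. Dbp, a PAR bZIP factor that the clock drives in many tissues, rose in lung by 1.67 (SE 0.33, adjusted p = 0.0361, limma) at D1, 2.30 (SE 0.35, adjusted p = 0.00197) at D2 and 2.32 (SE 0.33, adjusted p = 0.000606) at D3. In D0 lungs Dbp lay between -1.64 and -0.23, and in D3 lungs between 0.45 and 1.97. Its relative Tef rose by 0.87 at D2 (adjusted p = 0.0153) and 0.95 at D3 (adjusted p = 0.00216), and Hlf by 1.04 at D3 (adjusted p = 0.00897). Nfil3, which represses through the same sites as Dbp, fell at D3 by 0.70 (adjusted p = 0.042). Thus 1, 2 and 4 of the 4 output factors were called at D1, D2 and D3, against 0.14%, 0.264% and 0.639% of all probes, with a median difference at D3 of 1.00 against -0.0003 over all probes.

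Of the 8 repressors, 0 were called in lung at D1, 1 at D2 and 1 at D3, against 0.14%, 0.264% and 0.639% of all probes. At an unadjusted p under 0.05 there were 1, 4 and 4 of the 8, against 6.53%, 8.07% and 11.3% of all probes. Per3, of the Period family, rose at D2 by 0.70 (SE 0.13, adjusted p = 0.0106), and Bhlhe40 (Dec1), which competes for E-boxes, rose at D3 by 0.59 (SE 0.13, adjusted p = 0.0234). The D3 difference of Per3 was 0.58 (adjusted p = 0.0156), just under the fold required. Per1 and Per2 differed by 0.49 (SE 0.25) and 0.59 (SE 0.25) and Cry2 by 0.0038 (SE 0.10), all not called and named here after their values were seen. The median over the 8 at D3 was 0.37, beside -0.0003 over all probes. None of the 12 cofactors and kinases were called in lung at any dose. The largest D3 difference in that list was -0.25 for Ppargc1a (SE 0.14), which encodes a coactivator of Ror receptors.

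In forestomach 0 of the genes in these 3 lists were called by limma at any dose. At D3, 4 of the 4 output factors, 4 of the 8 repressors and 2 of the 12 cofactors and kinases had an unadjusted p under 0.05, as had 3.56% of all probes. The largest D3 differences of the 3 lists were 2.32 for Dbp (SE 0.44, adjusted p = 0.891), 0.52 for Cry2 (SE 0.16) and 0.47 for Btrc (SE 0.13). The D3 forestomach samples had Dbp between -0.34 and 0.32, and the D0 samples between -2.57 and -2.04. Between the tissues at D0, Per1, Per2, Cry2, Dbp, Tef and Btrc were among the genes called higher in lung, by 0.90 (Btrc) to 1.79 (Tef), and Nfil3, Ppargc1a and Usp2 were lower, by -0.75 to -1.15.

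**Figure D5:**
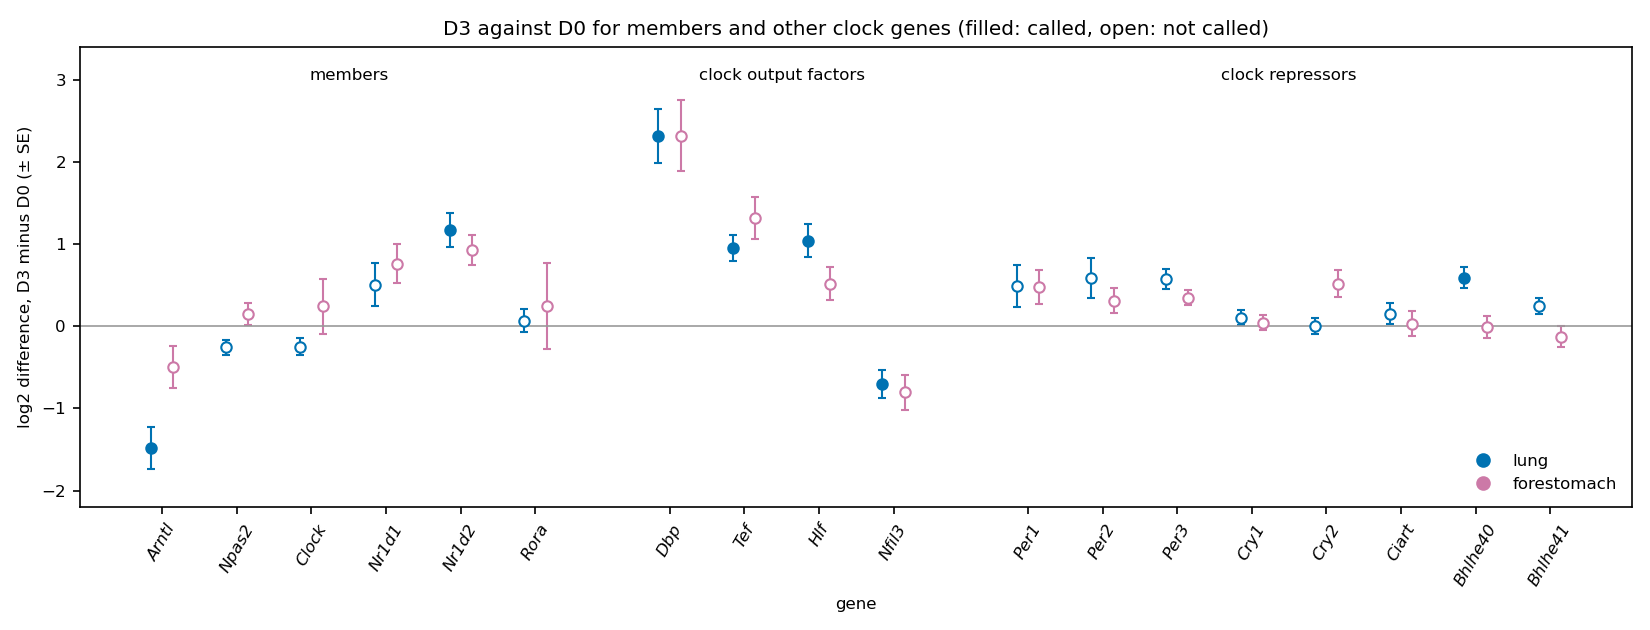
Log2 difference of D3 from D0 (vertical axis, with SE bars) in lung and forestomach for the 6 members, 4 output factors and 8 repressors. Filled points were called. In both tissues Dbp has the largest difference (2.32 and 2.32), and Arntl and Nfil3 are the genes with the most negative values.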

How the data were processed

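Two-colour arrays of 19 lungs and 19 forestomach samples were analysed. The deposited scanner files give, per the labels and file headers, median intensity in Cy5 (tissue) and Cy3 (reference) with no dye swap, and the authors' Feature Extraction 10.7.3.1 log10 ratio, used as an alternative. The deposited log2 ratio table, made by the authors, served as another alternative. Its columns tracked these ratios (r 0.9953 to 0.9991), with medians of -0.0415 to -0.0195. Its exact centring is not given in the sources used here.

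Intensities were loess-normalized within arrays without background correction. Control and outlier-flagged spots were left out, spots of a probe were averaged, and 55681 probes were fitted with limma 3.58.1 in R 4.3.3, each tissue over all dose groups and both tissues together for comparisons between them. Probes were named through accessions, which gave 20018 genes. The array number limits the precision. Replicates are separate mice.

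The members and gene lists were chosen with earlier results of these data known. All 6 members were named, the listed clock genes that passed the test or had the largest difference were named with values, and the genes most like Arntl were the 5 highest and 5 lowest correlations in each tissue. Some listed genes are not reported here. Same-numbered samples are, per the labels, lung and forestomach of 1 mouse, mouse 18 with 2 forestomach arrays included. Their deviations correlated at 0.075 to 0.249 (median 0.186), and 6 of 18 mice correlated best with their own number. The lung array and the (first) forestomach array of a mouse lay on the same slide. Only dose means were removed here, so a shared slide cannot be told apart from a shared animal. The fits were tested on simulated data. Promoter sequences are from RefSeq (GRCm38.p6). Alternatives were normalization, background correction, a filter on dim probes, slide and scan day as blocks, the mouse as a replicate block, and leaving out each mouse.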

Additional observations from a re-analysis of the deposited data

Results flagged for a closer look

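Among 48 groups of 4 or 5 mice, 1 for each member, tissue and dose group, 2 had a mouse far from the others, where chance gives about 1 in 20 groups. Arntl in the lung of mouse 3 at D0 was -0.2066, with a gap of 0.715 of the group's range to the next mouse, just past the critical value. Nr1d1 in the forestomach of mouse 1 at D0 was -0.6702, with a gap of 0.746 of the range.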

How the results depend on the processing

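The lung calls of Arntl and Nr1d2 at D3 stood under all single-mouse omissions, with log2 differences of -1.66 to -1.34 and 1.07 to 1.26. Median centring in place of loess ended the calls in lung, with 0 members at D2, 0 at D3 and 0 for the mean of the doses, and 0 between the tissues at D0. With the Feature Extraction log ratio 1 member was called at D2 in lung, and slide as a block gave 1 at D1. Between the tissues at D0, 2 members were called with the Feature Extraction ratio, 2 with the filter on dim probes, 2 with slide, 2 with scan day and 2 with the mouse as a replicate block. With the replicate block the D3 difference in response of Arntl was -1.09, and the block changed no other call. Leaving out 1 mouse gave 0 to 1 members at D1 in lung, 0 to 2 at D2, 2 to 3 for the mean of the doses and 0 to 2 between the tissues. Median centring turned Clock in lung to 0.12, 0.16, 0.10 and 0.13 (D1, D2, D3, mean), Arntl in forestomach to 0.28, 0.17 and 0.10 (D2, D3, mean), Npas2 in forestomach at D3 to -0.028, and Arntl, Clock and Rora between the tissues to 0.42, 0.013 and 0.31. The Feature Extraction ratio turned Rora in lung to -0.037, -0.048 and -0.016 (D1, D3, mean), Clock in forestomach at D2 to -0.051, and the difference in response to -0.23 and -0.074 for Nr1d2 (D3, mean) and -0.10 for Nr1d1 (mean). Slide as a block turned Clock in forestomach to -0.0023, -0.16, -0.027 and -0.063 (D1, D2, D3, mean) and Rora to -0.22, -0.14 and -0.054 (D2, D3, mean), and scan day turned Clock and Rora at D2 to -0.073 and -0.044. Without single mice Rora in lung at D3 ran from -0.043 to 0.16, Clock in forestomach from -0.030 to 0.38 (D1), -0.13 to 0.37 (D2) and -0.033 to 0.38 (mean), and Rora in forestomach from -0.18 to 0.78 (D2), -0.10 to 0.44 (D3) and -0.064 to 0.49 (mean). The difference in response of Rora ran from -0.40 to 0.15 (D3) and -0.41 to 0.14 (mean), and Rora between the tissues from -0.52 to 0.038. The cause was not tested. Npas2 did not pass the filter on dim probes. Aquantile scaling leaves ratios as they are by construction.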
